A study of Mus musculus with 6 samples.

Results

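Mitochondrial complex I (NADH:ubiquinone oxidoreductase) was followed here through the protein-coding genes whose mouse symbol begins with Nduf. Of the 55401 gene identifiers in the fullest deposited file, 46 met that rule on the GRCm38 annotation. They were 36 nuclear-encoded subunits of complex I, 8 assembly factors (Ndufaf1 to Ndufaf8), and Ndufa4 and Ndufa4l2, which carry the family name although Ndufa4 is now counted as a subunit of complex IV. A distal membrane arm subunit listed as Ndufb1-ps is annotated as a non-coding RNA in the release used here and so was not a member.

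The libraries came from the myocardium of male wild-type (WT) mice given a PBS injection or an STZ injection, with 3 libraries in each group and a time label of 8 weeks. STZ (streptozotocin) is a toxin of pancreatic beta cells that makes mice short of insulin, so the STZ group models diabetes through loss of those cells and the toxin itself reaches the whole animal. None of the sources used here gives the strain, the age at injection, the dose or the event from which the time runs. Nothing in the labels says that the libraries are separate animals, so every p-value reflects how far these libraries scatter, and that scatter may be technical.

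Complex I takes electrons from NADH, passes them along a chain of iron-sulfur clusters to ubiquinone, and pumps protons across the inner mitochondrial membrane. Its N module binds and oxidises NADH, its Q module reduces ubiquinone, and its membrane arm moves the protons. The membrane arm's own core proteins are encoded by mitochondrial DNA, so the complex needs transcripts from both genomes. Assembly factors bind part-built modules and are not found in the finished complex. Heart muscle is rich in mitochondria, and its cardiomyocytes rely on respiration for most of their energy.

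Levels are FPKM, the fragments of a gene divided by its length and by the mapped fragments of the library, and they summed to between 531384 and 589719 over the genes of the 5 complete files. The number of fragments is not stated, so the depth behind a value is unknown and it carries no counting interval. PBS replicate 3 has a shorter file, which lists 13.9% of the genes, among them 29 of the 46 members, so the test over all genes used PBS replicates 1 and 2 against STZ replicates 1 to 3, and the values of PBS replicate 3 are set beside it. The cardiomyocyte markers fitted the label: Myh6 was between 2219 and 3083 FPKM in the 5 libraries and white fat markers were each at or below 0.36 FPKM. In the bulk tissue, fewer cells of a type and less RNA per cell cannot be told apart.

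STZ replicate 3 stood apart from the other STZ libraries for the complex I subunits. Of the 36 subunits, 5 were above the mean of PBS replicates 1 and 2 in STZ replicate 1, 7 in STZ replicate 2 and 27 in STZ replicate 3. The median log2 ratio to that PBS mean was -0.18, -0.15 and 0.13 in the 3 libraries, against 0.02, 0.10 and 0.05 for all 11556 genes tested. STZ replicate 3 was the highest of the 5 libraries for 23 subunits, and STZ replicate 1 the lowest for 22. Summed over the 36 subunits, PBS replicates 1 and 2 had 5654 and 5790 FPKM. The STZ replicates 1 to 3 had 5066, 5426 and 6235. In this sum STZ replicate 3 lay above both PBS libraries and the other STZ libraries below them. As a share of all summed FPKM, the subunits were 0.96% and 0.98% in PBS and 0.89%, 1.02% and 1.07% in STZ. By that measure STZ replicate 2 also lay above both PBS libraries. As a share of nuclear protein-coding genes, only STZ replicate 3 did, at 3.21% and 3.27% in PBS and 2.84%, 2.91% and 3.33% in STZ.

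Several other measures also set these libraries apart, and their part in the subunit values was not tested. Among the 8 atrial markers, Myl7, an atrial myosin light chain, was 262 and 37.9 FPKM in PBS replicates 1 and 2, 0.21 in PBS replicate 3, and 357, 73.7 and 0.28 in STZ replicates 1 to 3. Atrial Sln, which inhibits the calcium pump, was 31.6 and 5.64 FPKM in PBS and 37.1, 4.54 and 0 in STZ, so it was listed at 0 in STZ replicate 3. Same-numbered libraries of both groups thus had like levels of Myl7 and Sln, where both genes are listed. The summed atrial markers were 314.6 to 1354 FPKM in PBS and 975 to 3337 in STZ, a sum made up largely of Nppa. The 10 cardiomyocyte markers summed to 14185 and 15418 FPKM in PBS and to 11968, 11125 and 14117 in STZ, and 8 of the 10 had a negative log2 fold change, with 0 called in either direction. The 6 neutrophil markers summed to 3.64 and 8.22 FPKM in PBS and to 41.9, 57.8 and 51.8 in STZ, and 3 of the 3 tested passed as higher. Of the 8 fibroblast markers 3 passed as lower (Col1a1, Col3a1 and Postn). The list was divided, with 4 positive and 4 negative. Another 3 (Pdgfra, Tcf21 and Dcn) lay higher in every STZ library than in PBS replicates 1 and 2. Of the 7 endothelial markers 2 passed as higher and 1 as lower, and of 6 smooth muscle and pericyte markers 1 as lower. Of 2 tested brown fat markers 1 passed as higher, and of 6 macrophage markers 0 in either direction. Over all genes tested, 3.64% passed as higher and 2.17% as lower. Red blood cell markers summed to 283 and 310.2 FPKM in PBS and to 329, 959 and 361 in STZ, the highest in STZ replicate 2. Short transcripts were also high in STZ replicate 3: coding genes under 1000 bases had a median log2 ratio of 0.17 there (854 genes) against 0.02 for longer ones (9199 genes). The 23 subunits under 1000 bases had medians of -0.23, -0.13 and 0.15 in STZ replicates 1 to 3, and the 13 longer ones -0.15, -0.15 and 0.05. The longer subunits of STZ replicate 3 thus sat near the median of all genes, and the shorter ones above it.

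**Figure D1:**
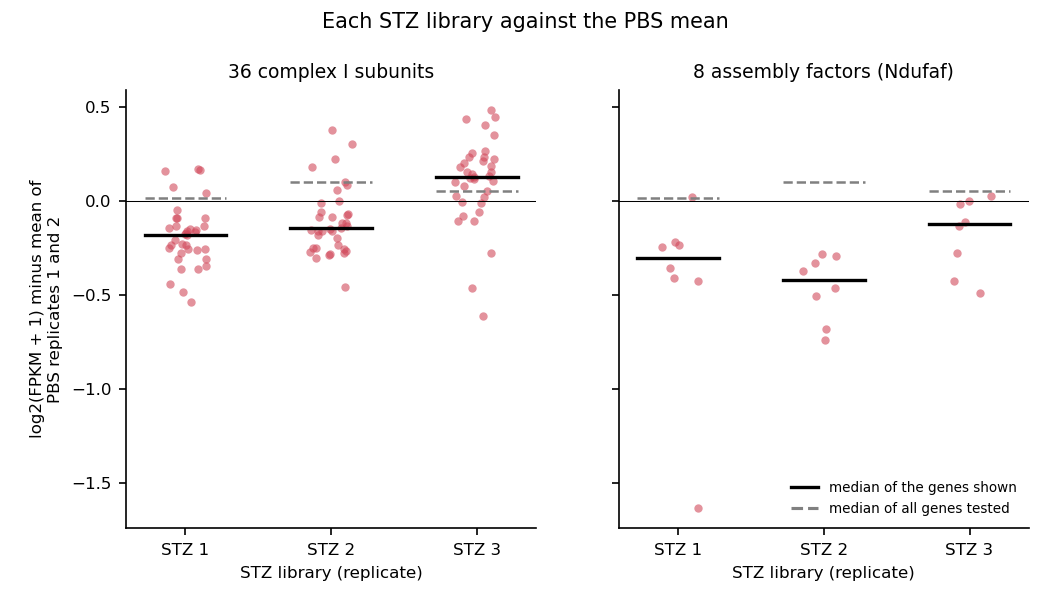
Difference of each gene in log2(FPKM + 1) from the mean of PBS replicates 1 and 2 (vertical axis) in each STZ library (horizontal axis), for 36 complex I subunits on the left and 8 Ndufaf assembly factors on the right. Points are genes, solid bars their median and dashed bars the median of all genes tested. The subunit medians are -0.18, -0.15 and 0.13, so STZ replicate 3 lies above 0, and the assembly factor medians of -0.30, -0.42 and -0.12 lie below 0 in all 3 libraries.

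None of the 46 members passed the test between STZ and PBS, which was limma on log2(FPKM + 1) with an adjusted p threshold of 0.05 over all genes tested, all 46 members being among them. In the same test 5.82% of all genes passed, 3.64% higher and 2.17% lower in STZ. At an unadjusted p under 0.05 there were 5 members (Ndufaf5, Ndufs8, Ndufaf1, Ndufaf3 and Ndufa7), or 5 of 46 against 26.6% of all genes. The log2 fold change was negative for 27 of the 36 subunits and for 8 of the 8 Ndufaf genes, against 43% of all genes. Its median was -0.06 for the subunits and -0.32 for the Ndufaf genes, against 0.06 over all genes. The subunit median rests on single libraries. It was -0.15 without STZ replicate 3, 0.01 without STZ replicate 1, and 0.01 when the values were converted to TPM, which sum to the same total in every library. The median of the assembly factors stayed negative under each of those, at -0.38, -0.27 and -0.27.

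The groups can also be compared by whether their values overlap. With PBS replicates 1 and 2 against 3 STZ libraries, 6 of 36 subunits lay lower in every STZ library and 3 higher, and 5 of 8 Ndufaf genes lay lower and 0 higher, where 18.8% of all genes lay lower and 28.7% higher, 47.4% in all. Without STZ replicate 3, 25 of 36 subunits and 6 of 8 Ndufaf genes lay lower and 3 subunits higher, against 23% and 35.5% of all genes. That library was already seen to be the one where subunits were high, so more lower subunits follow from leaving it out. The overlap was counted with no other library left out. Without STZ replicate 1, only 17 of 36 subunits had a negative log2 fold change. Among the 29 members listed in PBS replicate 3, 6 lay lower in all 3 STZ libraries than in all 3 PBS libraries (among them Ndufs1, Ndufv2, Ndufa10, Ndufaf1 and Ndufaf5) and 0 higher. The shares of all genes listed there were 15.8% lower and 26.1% higher. Of the 24 subunits listed in PBS replicate 3, 20 were above the mean of the other PBS libraries, with a median log2 ratio of 0.06. Over the same 24 subunits STZ replicate 3 had 18 above that mean and a median of 0.11, so PBS replicate 3 and STZ replicate 3 were shifted the same way, while STZ replicates 1 and 2 had 1 and 2 above it and medians of -0.21 and -0.16. The subunits differed little between groups for their spread: the median size of the log2 fold change was 0.10, below the median SE of 0.15, while for the Ndufaf genes it was 0.32 against a median SE of 0.15. Over all genes tested the median size was 0.24 against a median SE of 0.16, so a typical gene also exceeded its SE.

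**Figure D2:**
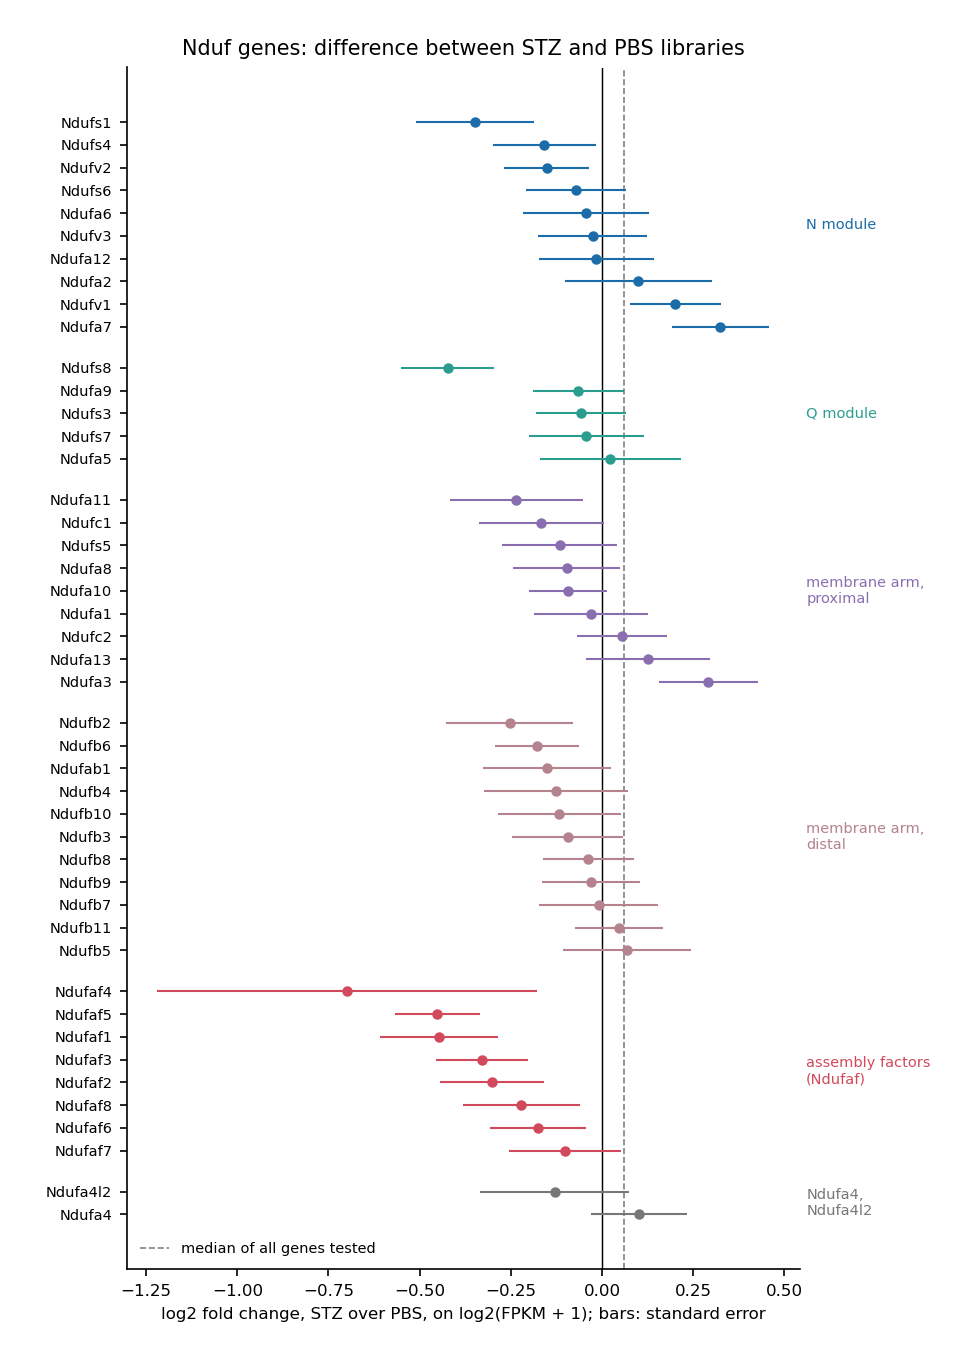
log2 fold change of STZ over PBS on log2(FPKM + 1) (horizontal axis, bars are the standard error) for 45 Nduf genes, grouped by their place in complex I. The 8 assembly factors lie to the left of 0, from -0.70 to -0.10, while subunits lie on both sides, from -0.42 to 0.33, and the dashed line is the median of all genes at 0.06.

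The levels of the subunits spanned a wide range that both groups shared. Per length, the most abundant was Ndufb9, a distal membrane arm subunit, at 426 ± 6.99 FPKM (SD, n = 2) in PBS and 419 ± 49.7 FPKM (SD, n = 3) in STZ. Ndufa1 at 325 ± 17.4 FPKM (SD, n = 2) and Ndufa8 at 309 ± 0.127 FPKM (SD, n = 2) were also among the highest in PBS, within their spread of each other. The lowest was Ndufb2, at 12.3 ± 1.4 FPKM (SD, n = 2) in PBS and 10.2 ± 1.88 FPKM (SD, n = 3) in STZ, and the subunit median in PBS was 133 FPKM. The annotated exons of Ndufb2 cover 5628 bases against 455 in its principal transcript. Of the 50-base words of that transcript, 24.4% also occur in other genes. The length behind each FPKM was not given, and whether these features bear on the low level was not tested. All 8 Ndufaf genes were lower than the subunit median, from 5.84 FPKM for Ndufaf7 to 21.5 FPKM for Ndufaf1 in PBS, with a median of 9.19. Ranked by level, the subunits kept a Spearman correlation of 0.98 between the PBS and STZ means and the Ndufaf genes 0.90, both over genes that share libraries. Ndufa2 was the eighth highest of the 46 members in PBS, at 286.5 ± 1.63 FPKM (SD, n = 2). In STZ it was the third, at 313 ± 73.8 FPKM (SD, n = 3), a spread larger than the difference.

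**Figure D3:**
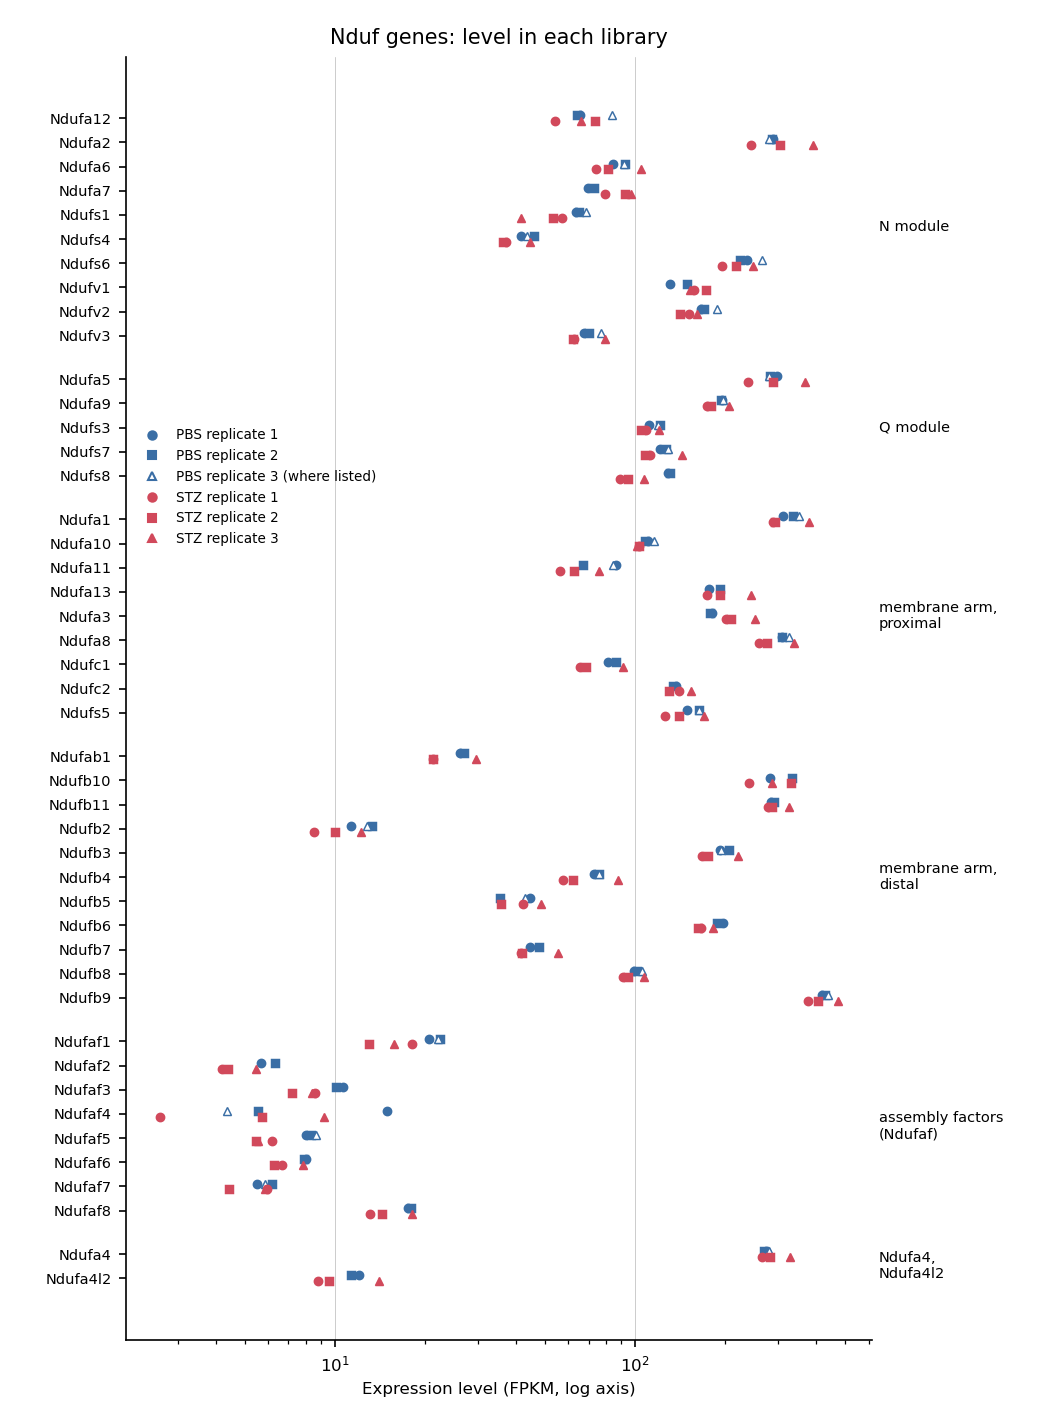
Level of 45 Nduf genes (FPKM, log axis) in each library, with PBS in blue and STZ in red and PBS replicate 3 drawn open for the 28 of them it lists. Subunits reach from Ndufb2 near 12.3 FPKM to Ndufb9 near 425.5 FPKM in PBS, the Ndufaf genes lie between 5.84 and 21.5 FPKM, and the STZ replicate 3 triangle is the rightmost of the 5 fully listed libraries for 23 of 35 subunits.

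The nuclear-encoded catalytic core subunits carry the flavin and the iron-sulfur clusters and form the quinone site. The largest difference of any subunit was in Ndufs8 (chr19:3908863-3912774), an iron-sulfur protein of the Q module. It was 129 and 131 FPKM in PBS replicates 1 and 2, against 89.4, 94.5 and 107 in STZ replicates 1 to 3. Each STZ library was thus below both PBS libraries, STZ replicate 3 included. The log2 fold change was -0.42 (SE 0.13), a ratio of means of 0.746, with a limma adjusted p of 0.103. After quantile normalization it was -0.56 with a limma adjusted p of 0.0439, the only alternative run in which a subunit passed.

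Ndufs1 (chr1:63143596-63176833), the large iron-sulfur protein of the N module, was 63.7, 64.9 and 68.6 FPKM in the 3 PBS libraries and 57.2, 53.2 and 41.8 in STZ. The log2 fold change of Ndufs1 was -0.35 (SE 0.16) with a limma adjusted p of 0.227. STZ replicate 3 was the lowest library, the reverse of its place for most subunits, and the groups of 3 did not overlap. Ndufv2, the other iron-sulfur protein next to the flavin subunit, was 166, 169 and 187 FPKM in PBS and 152, 141 and 161 in STZ, again with no overlap but a smaller log2 fold change of -0.15 (SE 0.12).

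Ndufs3 and Ndufs7 belong to the Q module core, Ndufs7 bearing the last iron-sulfur cluster before ubiquinone. Ndufs3 was 111, 121 and 119 FPKM in PBS and 109, 105 and 121 in STZ, and Ndufs7 was 121, 127 and 129 in PBS and 112, 108 and 144 in STZ. Their groups overlapped, with log2 fold changes of -0.06 (SE 0.12) and -0.04 (SE 0.16). Ndufv1, which binds NADH and the flavin, differed in the other direction. It was 131 and 149 FPKM in PBS replicates 1 and 2, against 157, 173 and 152 in STZ, higher in each STZ library, with a log2 fold change of 0.20 (SE 0.13) and a limma adjusted p of 0.353. The partners Ndufv1 and Ndufv2, which sit side by side at the tip of the N module, therefore had log2 fold changes of opposite sign, and neither passed the test.

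Among the accessory subunits of the N module the largest difference was positive. Ndufa7 was 69.7 and 72.7 FPKM in PBS and 79.6, 92.8 and 96.9 in STZ, higher in every STZ library. Its log2 fold change of 0.33 (SE 0.13) was the largest positive one of all 46 members, with a limma adjusted p of 0.183. Ndufa2, a thioredoxin-like subunit, was 288, 285 and 279.6 FPKM in PBS and 244, 304 and 391 in STZ, so only STZ replicate 1 was below the PBS libraries. For Ndufa2 the log2 fold change was 0.10 (SE 0.20), and 11.5% of its exon length is overlapped by Tmco6 on the opposite strand. The 5 other N module subunits overlapped between groups and lay below 0, Ndufa12 closest to it. Ndufs4, which stabilises the N module on the rest of the complex, was 41.7, 46 and 43.5 FPKM in PBS and 37.1, 36.3 and 44.6 in STZ, a log2 fold change of -0.16 (SE 0.14). Ndufs6, Ndufa6 and Ndufv3 were nearer 0, at -0.07, -0.04 and -0.03. In the Q module, Ndufa9, a dehydrogenase-like subunit at the quinone site, was 195, 193 and 196 FPKM in PBS and 173, 179 and 205 in STZ, and Ndufa5 was 298, 281 and 278 in PBS and 239, 288 and 369 in STZ. For both, STZ replicate 3 was above all 3 PBS libraries and STZ replicate 1 below them. The 10 N module subunits had a median of -0.03 with 7 negative, and the 6 of the Q module -0.06 with 5 negative.

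In the membrane arm, Ndufa3, an accessory subunit of the proximal part, was the only one higher in every STZ library. It was 181 and 178 FPKM in PBS and 201, 209 and 251 in STZ, with a log2 fold change of 0.29 (SE 0.14) and a limma adjusted p of 0.229. Ndufa13, also known as GRIM-19, was 177 and 192 FPKM in PBS and 173, 192 and 244 in STZ, a difference of 0.13 (SE 0.17) on the log2 scale that came mainly from STZ replicate 3. Tssk6 on the opposite strand overlaps 30.0% of its exon length. Ndufc2 was 137 and 134 FPKM in PBS and 139.9, 130.1 and 154 in STZ, and its log2 fold change of 0.06 (SE 0.12) was within its error. Ndufa10, a nucleoside kinase-like subunit, had the tightest STZ values of all subunits: 111, 108 and 116 FPKM in PBS and 103, 103 and 102 in STZ. The groups did not overlap, but the log2 fold change was only -0.09 (SE 0.11). Ndufa1, Ndufa8, Ndufc1 and Ndufs5 also overlapped, with log2 fold changes of -0.03, -0.10, -0.17 and -0.12, and in each STZ replicate 3 was the highest of the 5 libraries and STZ replicate 1 the lowest. The 9 proximal subunits had a median of -0.09 with 6 negative.

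The 11 distal subunits had the narrowest range of log2 fold changes, from -0.25 for Ndufb2 to 0.07 for Ndufb5, with 9 negative and a median of -0.09. Ndufb6 was the distal subunit whose groups did not overlap, at 197 and 188 FPKM in PBS and 166, 162 and 182 in STZ. The difference was -0.18 (SE 0.12) on the log2 scale, and Smim27 on the opposite strand overlaps 39.0% of its exon length. Ndufb5 was 44.8, 35.5 and 43.1 FPKM in PBS and 42.3, 35.8 and 48.4 in STZ, with Mrpl47 opposite 12.3% of its exons. Its groups overlapped. Ndufb9, the most abundant member, was 421, 430.5 and 441 FPKM in PBS and 376, 406 and 473 in STZ, with a log2 fold change of -0.03 (SE 0.13). Gm49356 on the same strand overlaps 19.5% of the exon length of Ndufb9. Ndufb3, Ndufb7, Ndufb8, Ndufb10 and Ndufb11 overlapped as well, from -0.12 for Ndufb10 to 0.05 for Ndufb11. The non-coding Ndufb1-ps, outside the rule, was 99.1 and 101 FPKM in PBS and 86.8, 85.1 and 110.2 in STZ and showed the pattern of most subunits, with STZ replicate 3 the highest.

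Ndufa4, the complex IV subunit, was 272, 269 and 280.1 FPKM in PBS and 265, 282 and 328 in STZ, with a log2 fold change of 0.10 (SE 0.13). Its paralog Ndufa4l2, known as a gene induced in hypoxia, was far lower, at 12 and 11.3 FPKM in PBS and 8.75, 9.52 and 14 in STZ, with a log2 fold change of -0.13 (SE 0.20). The groups overlapped for both genes.

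As a set, the Ndufaf assembly factors had larger differences than the subunits. Their median size of the log2 fold change was 0.32, against 0.10 for the subunits and 0.24 over all genes tested. Single subunits such as Ndufs8 and Ndufs1 still differed more than Ndufaf6, Ndufaf7 and Ndufaf8. Ndufaf5 (chr2:140170649-140203689), which hydroxylates an arginine of Ndufs7 early in assembly, was 7.99, 8.33 and 8.64 FPKM in the 3 PBS libraries and 6.15, 5.45 and 5.52 in STZ. The groups stood well apart, with the lowest PBS value above the highest STZ value and the STZ libraries close together. In the fit with PBS replicates 1 and 2 the log2 fold change was -0.45 (SE 0.12) with a limma adjusted p of 0.0774, the smallest of the 46 members. With PBS replicate 3 added, Ndufaf5 passed the test at -0.48 with a limma adjusted p of 0.0274. It was then 1 of 29 listed members to pass, against 12.4% of all listed genes, 4.57% lower and 7.84% higher. The call therefore depends on whether that incomplete file is used. Its promoter is shown as that of the member nearest the threshold: the 100 bases before its RefSeq start (chr2:140170546-140170645, plus strand, GRCm38.p6), in which none of 4 motifs searched was found.
Ndufaf5: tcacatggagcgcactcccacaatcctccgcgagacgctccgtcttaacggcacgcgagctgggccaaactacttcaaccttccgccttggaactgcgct

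Ndufaf1 (chr2:119655446-119662827) belongs to the assembly complex of the membrane arm together with Ecsit, Acad9 and Tmem126b. It was 20.6, 22.4 and 22 FPKM in PBS and 18.1, 13 and 15.8 in STZ, again without overlap. Its log2 fold change was -0.45 (SE 0.16) with a limma adjusted p of 0.146, and of 0.0691 with PBS replicate 3 added. Ndufaf3, which binds Ndufaf4 on the growing Q module, was 10.6 and 10.1 FPKM in PBS replicates 1 and 2, against 8.56, 7.21 and 8.36 in STZ. No STZ value reached the PBS values, the log2 fold change was -0.33 (SE 0.13), and the limma adjusted p was 0.163.

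Ndufaf4 had the most negative log2 fold change of all members, -0.70 (SE 0.52), but rested on a single library. It was 14.9, 5.53 and 4.37 FPKM in the PBS libraries and 2.61, 5.72 and 9.21 in STZ, so PBS replicate 1 stood alone and the other libraries of both groups overlapped. The limma adjusted p was 0.432, and without PBS replicate 1 the log2 fold change was -0.06. Ndufaf2, a relative of Ndufa12 that acts late in assembly, was 5.68 and 6.3 FPKM in PBS and 4.21, 4.4 and 5.46 in STZ, with a log2 fold change of -0.30 (SE 0.14). B230220B15Rik on the opposite strand overlaps 65.6% of its exon length, so its value is uncertain.

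The remaining 3 were closer to 0. Ndufaf8, the partner of Ndufaf5, was 17.5 and 17.9 FPKM in PBS and 13.1, 14.4 and 18.1 in STZ, with STZ replicate 3 the highest of the 5 and a log2 fold change of -0.22 (SE 0.16). Ndufaf6 was 7.98 and 7.86 FPKM in PBS and 6.66, 6.28 and 7.83 in STZ, with the groups just apart and a log2 fold change of -0.18 (SE 0.13). Ndufaf7, a methyltransferase, was 5.5, 6.17 and 5.86 FPKM in PBS and 5.93, 4.44 and 5.83 in STZ, overlapping, with a log2 fold change of -0.10 (SE 0.15).

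Set against the subunits of the same library, the Ndufaf genes were lower in each STZ library. Their summed FPKM was 1.61% and 1.46% of the summed subunits in PBS replicates 1 and 2, and 1.29%, 1.12% and 1.22% in STZ replicates 1 to 3. Without Ndufaf4 the shares were 1.34% and 1.37% in PBS and 1.24%, 1.02% and 1.07% in STZ. Being ratios within a library, these shares do not move with the scaling between libraries, and in both forms the groups did not overlap. The shares can still move with transcript length, since 23 of 36 subunits but only a minority of the Ndufaf genes are under 1000 bases. Short coding genes were high in STZ replicate 3, and the part of length in these shares was not tested. STZ replicate 3, in which the subunits were high, had a share between those of the other STZ libraries.

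**Figure D4:**
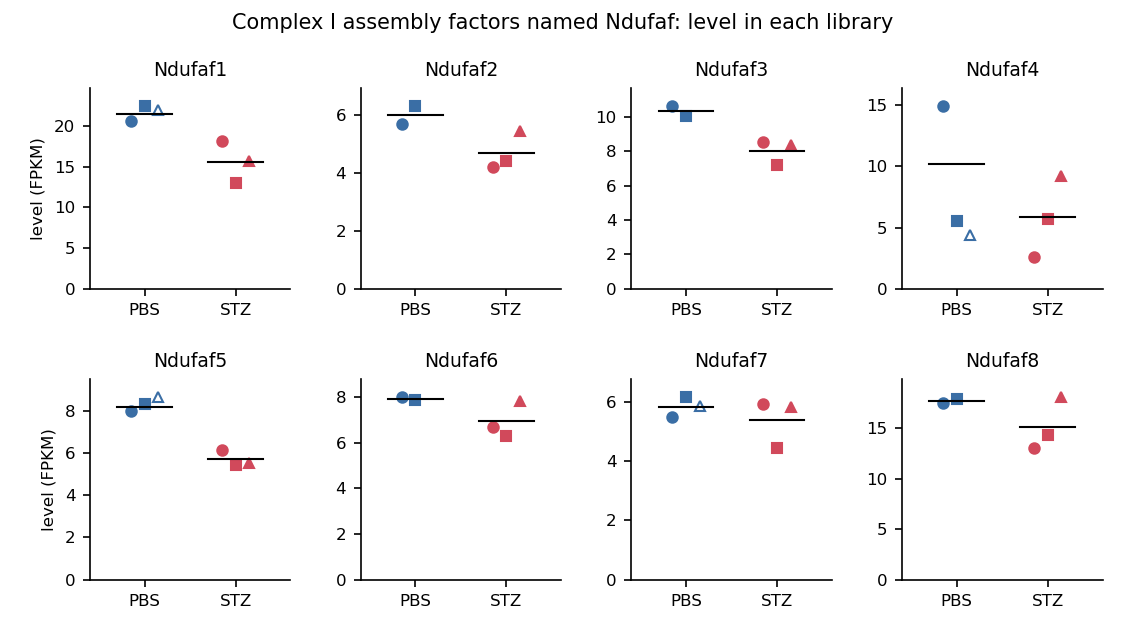
Level (FPKM, axes from 0) of the 8 Ndufaf genes in each library, where circles, squares and triangles are replicates 1, 2 and 3, blue is PBS, red is STZ, and open triangles are PBS replicate 3 for the 4 genes it lists. Horizontal lines are the means of PBS replicates 1 and 2 and of the 3 STZ libraries. The groups stand apart for Ndufaf1, Ndufaf2, Ndufaf3, Ndufaf5 and Ndufaf6, and in the Ndufaf4 panel PBS replicate 1 at 14.9 FPKM stands alone.

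Assembly factors of complex I also exist under other names. Over all genes tested, 43% had a negative log2 fold change, 18.8% lay lower in every STZ library, 28.7% lay higher and 5.82% passed. Of 12 of these assembly factors tested, 11 had a negative log2 fold change, 8 lay lower in every STZ library and 0 higher. The median was -0.23, with 0 past the threshold. The largest difference was in Timmdc1, a membrane protein of the assembly complex for the membrane arm, at 19.9, 21.8 and 19 FPKM in PBS and 15, 13.5 and 13.6 in STZ. The log2 fold change of Timmdc1 was -0.54 (SE 0.12) with a limma adjusted p of 0.0567, and of 0.0275 once PBS replicate 3 was added. It passed in 3 of the 17 alternatives run for it, over which its adjusted p was 0.0275 to 0.326. Nubpl, which delivers iron-sulfur clusters to complex I, was 2.07 and 2.08 FPKM in PBS and 1.53, 1.57 and 1.07 in STZ, with a log2 fold change of -0.37 (SE 0.15). Dmac2 alone had a positive value, 0.11 (SE 0.13).

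The 7 membrane arm core subunits encoded by mitochondrial DNA had a median of -0.19, with 5 negative, 3 lower in every STZ library and 0 past the threshold. The shares of all genes were 43% negative, 18.8% lower in every STZ library and 5.82% past the threshold. mt-Nd4l was 10651 and 10295 FPKM in PBS and 8255, 6342 and 5996 in STZ, and mt-Nd2 was 18300.5 and 17082 in PBS and 12756, 10501 and 12898 in STZ. For both genes the groups stood apart, with log2 fold changes of -0.62 (SE 0.15) and -0.56 (SE 0.12) and limma adjusted p of 0.0687 and 0.0507. PBS replicate 3 does not list these 7 genes. With that library added for the other genes, mt-Nd2 had a limma adjusted p of 0.0383 on the same 5 values, and it passed in 4 of 17 alternatives. mt-Nd4l passed in 1 of the 17, without STZ replicate 1. After quantile normalization both differences were much smaller, at -0.16 for mt-Nd2 with a limma adjusted p of 0.288 and -0.17 for mt-Nd4l with a limma adjusted p of 0.529. mt-Nd1 and mt-Nd6 lay on the other side of 0, at 0.08 (SE 0.17) and 0.06 (SE 0.14). Mitochondrial genes made up 47.3% and 47.1% of the summed FPKM in PBS and 45.5%, 42.0% and 43.3% in STZ, and the part of that share in these differences was not tested.

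Of the 5 genes listed as supercomplex factors, which bear on how complex I joins complexes III and IV, 2 passed the test and both fell. Over all genes tested 5.82% passed, 2.17% as lower. Cox7a1, the heart and muscle form of a complex IV subunit, fell from 1213 and 1062 FPKM in PBS to 572, 506 and 675 in STZ, a log2 fold change of -0.97 (SE 0.15) with a limma adjusted p of 0.0261. Higd1a, a small inner membrane protein, fell from 23.8 and 24.7 to 13.2, 13.8 and 15.9 FPKM, a log2 fold change of -0.73 (SE 0.13) with a limma adjusted p of 0.0349. Both calls were lost with no filter on low levels (limma adjusted p of 0.0968 and 0.0853) and without PBS replicate 1 (0.214 and 0.229), PBS replicate 2 (0.14 and 0.223), STZ replicate 1 (0.0575 and 0.0718) or STZ replicate 2 (0.0513 and 0.07). Higd1a also missed it with TPM (limma adjusted p of 0.051) and with the replicate number as a block (0.0688), where Cox7a1 was at 0.0432. The other 3, Cox7a2l, Cox7a2 and Higd2a, did not pass.

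Among 14 tested regulators of mitochondrial genes 0 passed, with 8 negative and a median of -0.06. Over all genes tested 5.82% passed and 43% were negative. The largest differences were in Ppargc1b, a coactivator of respiratory genes, at 1.69 and 1.33 FPKM in PBS and 2.78, 4.23 and 2.41 in STZ, and in Tfb1m, a mitochondrial rRNA methyltransferase, at 2.25 and 1.76 in PBS and 0.73, 1.3 and 0.74 in STZ. Their log2 fold changes were 0.70 (SE 0.21) and -0.65 (SE 0.18). Nrf1, a factor that binds many respiratory gene promoters, was under the level filter, at 0.72 and 0.64 FPKM in PBS and 0.44, 0.88 and 0.76 in STZ. Of the 7 mitochondrial proteases 0 passed, with 5 negative, against the same shares of all genes, and a median of -0.12. Clpx, the unfoldase of a protease that removes damaged N module proteins, was 24.3, 23.4 and 23.1 FPKM in PBS and 38.8, 35.4 and 30.9 in STZ, higher in each STZ library, with a log2 fold change of 0.53 (SE 0.14) and a limma adjusted p of 0.0774. With PBS replicate 3 added that p was 0.0284. Lonp1, another protease of the mitochondrial matrix, was 32.4 and 34.3 FPKM in PBS and 26.5, 28.6 and 28.5 in STZ, with a log2 fold change of -0.25 (SE 0.12).

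Some subunit values are uncertain because the genome holds nearly identical processed pseudogenes, intron-less copies of a transcript, to which reads can be assigned. Ndufa12, an N module subunit, is the clearest case. It was 65.4, 64.2 and 83.6 FPKM in PBS and 54.1, 73.6 and 66.1 in STZ, while its copy Gm15920 (chr5:130188395-130188796, plus strand) was listed at 351 and 354 FPKM in PBS replicates 1 and 2, against 293, 204 and 310 in STZ. The coding sequences match at 99.5% of 402 aligned bases, with 2 mismatches. Bases 105 to 164 of the Ndufa12 coding sequence are shown with the matching stretch of the copy, the mismatch in capitals, to show how little separates their reads.
Ndufa12: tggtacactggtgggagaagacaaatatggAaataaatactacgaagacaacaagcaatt
Gm15920: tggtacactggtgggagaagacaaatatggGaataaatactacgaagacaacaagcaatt

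Of the summed FPKM of Ndufa12 and Gm15920, the copy held 84.5% ± 0.283 in PBS (SD, n = 2), against 80.1% ± 5.86 under STZ (SD, n = 3). FPKM divide by each gene's own length, so these are not shares of reads. The sum was 417 ± 1.87 FPKM in PBS (SD, n = 2), against 333 ± 50.8 under STZ (SD, n = 3), and did not overlap. Taken alone, Ndufa12 had a log2 fold change of -0.02, and with the copy added it was -0.33 (SE 0.15) with a limma adjusted p of 0.226. Adding the copy, which was itself lower in each STZ library, thus moves the difference of Ndufa12, and neither form passed the test. How reads were divided between gene and copy was not measured.

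Ndufab1, the mitochondrial acyl carrier protein, has 2 such copies, Gm4459 (99.8% identical over 468 bases) and Ndufab1-ps (99.6%). It was 26.1 and 26.8 FPKM in PBS and 21.2, 21.3 and 29.6 in STZ. Gm4459 was 51.4 and 62.4 in PBS and 43, 39.9 and 64.8 in STZ, and Ndufab1-ps 30.9 and 28.1 in PBS and 28.5, 27.6 and 25.4 in STZ. The copies together held 76.5% ± 0.778 of the sum in PBS (SD, n = 2), against 76.2% ± 0.961 under STZ (SD, n = 3), so their share of the FPKM was alike in both groups. Bases 107 to 166 of the coding sequence of Ndufab1 show its mismatch with Gm4459 in capitals.
Ndufab1: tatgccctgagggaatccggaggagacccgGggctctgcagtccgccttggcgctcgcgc
Gm4459: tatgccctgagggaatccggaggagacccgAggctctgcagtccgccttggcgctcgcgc

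Ndufb4 is matched by Ndufb4c (chr15:73809507-73809896, minus strand) at all 390 bases of its coding sequence. It was 72.8, 75.8 and 75.8 FPKM in PBS and 57.6, 62.1 and 87.6 in STZ, and the copy 33.3 and 21.8 in PBS and 54.9, 49.7 and 22.6 in STZ. The libraries where the parent was low, STZ replicates 1 and 2, were those where the copy was high. Their sum, with the small values of 2 further copies, was 102 ± 5.85 FPKM in PBS (SD, n = 2), against 112 ± 1.43 under STZ (SD, n = 3), and the log2 fold change went from -0.13 for the gene alone to 0.13 (SE 0.11) with the copies, the latter with a limma adjusted p of 0.483. Within STZ the sum thus varied less than the gene (16.1 FPKM SD) or the main copy (17.4 FPKM SD), and the sign depends on the counting. Over the 5 libraries copies held 8.6% to 10.4% of the sum for Ndufs3, 3.2% to 4.7% for Ndufs6, 1.1% to 3.0% for Ndufs5, 0.2% to 1.3% for Ndufc1 and at most 0.6% for the other 4 members that have them. With all copies added to their parents, 0 members passed and the subunit median was -0.06.

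**Figure D5:**
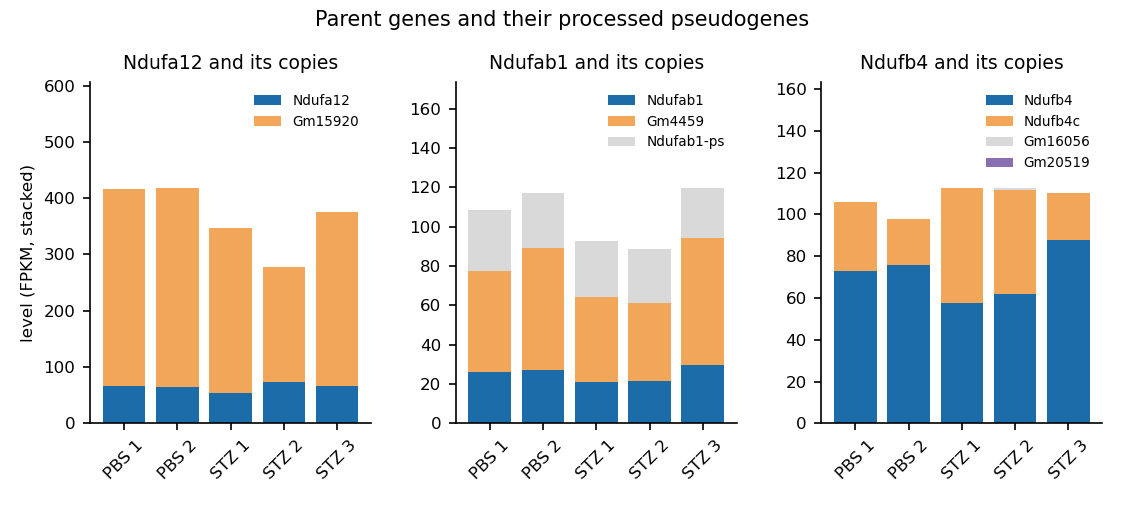
Level (FPKM, stacked bars from 0) of Ndufa12, Ndufab1 and Ndufb4 (blue) and of their processed pseudogenes (other colours) in the 5 complete libraries. The copy makes up most of the Ndufa12 bar, 84.5% in PBS and 80.1% in STZ, and the Ndufb4 bars sum to a mean of 102 FPKM in PBS and 112 in STZ while the part of the parent varies.

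The promoters of the members were searched for motifs of factors known for their role in respiratory gene expression. RefSeq starts (GRCm38.p6) were found for 40 of the 46 members, 42 starts in all, and the 250 bases before each were read on both strands. Some of these windows reach into annotated exons of their own gene. Of the 100 bases before the start, all 100 did so at both starts of Ndufa5, 85 in Ndufb4 and 68 in Ndufa8. In Ndufs6 it was 60 and in Ndufs5 16, and all of these hold the NRF1 motif within the 250 bases. For members with the ETS motif it was 100 in Ndufs3, 87 in Ndufb7 and 6 in Ndufaf8. In Ndufaf4 (NRF1), in Ndufb6 (ETS) and in the printed windows of Ndufaf5, Ndufa11 and Ndufaf1 it was 0. How often this holds over all starts was not counted. The NRF1 motif GCGCANGCG was in 8 of 42 (19.0%), against 5.16% of 32851 starts of all genes. The 2 starts of Ndufa5 lie so close that both windows hold the same match, so by gene the motif was near 7 of 40 members (17.5%), against 5.86% of 27025 gene symbols. The ETS motif CCGGAAG was in 5 (11.9%, against 6.91%), the ERR motif TNAAGGTCA in 1 (2.4%, against 1.14%) and the YY1 motif AAGATGGC in 0 (against 1.56%). In the windows printed here no motif overlaps another, but the NRF1 motif matches on both strands of Ndufa11 and these matches overlap. For the Ndufaf genes, 1 of 7 starts held the NRF1 motif and 2 of 7 the ETS motif, and for the other members 7 and 3 of 35. Shown are the 100 bases before the start of Ndufa11, a proximal membrane arm subunit with the NRF1 motif in capitals (chr17:56717662-56717761, plus strand), and of Ndufaf1 with the ETS motif in capitals (chr2:119662835-119662934, minus strand).
Ndufa11: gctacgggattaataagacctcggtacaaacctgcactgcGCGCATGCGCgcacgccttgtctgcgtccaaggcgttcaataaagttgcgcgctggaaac
Ndufaf1: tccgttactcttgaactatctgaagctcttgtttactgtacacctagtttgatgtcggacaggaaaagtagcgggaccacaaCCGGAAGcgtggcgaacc

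Ndufa11 itself was 86.2, 66.9 and 84.7 FPKM in PBS and 56, 62.5 and 76.1 in STZ, overlapping, with a log2 fold change of -0.24 (SE 0.18). A match of letters is a description and not a bound site, and its absence, as before Ndufaf5 and Ndufs8, says only that these letters are not in the window.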

How the data were processed

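RNA sequencing libraries of mouse myocardium, 3 after PBS and 3 after STZ injection by their titles, were made from poly(A) RNA, per the labels' protocols. Per the submitters' processing notes, reads went through cutadapt 1.9, HISAT2 2.0.4 and StringTie 1.3.4d on GRCm38. The deposited values are FPKM per gene, per the file headers. The annotation release, the strand setting and the read numbers were not given in the sources used here, so genes that overlap or have near copies are uncertain. Each FPKM depends on the total of its library.

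Symbols, positions and transcripts came from GENCODE M21 (GRCm38), which matched 55141 of 55401 identifiers and left 260 without a symbol. With a pseudocount of 1, log2(FPKM + 1) of the genes reaching 1 FPKM in 2 or more of the 5 libraries fitted went into limma 3.58.1, run in R 4.3.3 (eBayes with trend, two-sided, Benjamini-Hochberg over 11556 genes, threshold 0.05, no covariate). A library listing under 50% of the genes, PBS replicate 3, stayed out of that fit. Fold changes on this scale understate those of low genes. The fit was tested on simulated data. Copies are processed pseudogenes that share at least 10 exact words of 50 bases with the principal transcript of a member. Alternatives were 16 for each result, and adding copies to their parents was chosen after seeing the data.

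The members and the lists were chosen with earlier results of these data known. Named with values are members past the threshold, the 8 largest differences in each direction, the catalytic core, Ndufa4, Ndufa4l2, the Ndufaf genes and, of other lists, the 2 largest differences. Members with copies, and others whose groups did not overlap, were added after their values were seen. Tables were read with pandas 2.3.3, and sequences aligned with Biopython 1.88. The NRF1 motif was cut by its last base after counts with the longer form had been seen. That left the number of member starts holding it as it was and raised the share of all starts holding it. Values of 1 member are not reported here, although it stays in the fit and in the counts over members. Protein sequences were not used here.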

Additional observations from a re-analysis of the deposited data

How the results depend on the processing

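No member passed the threshold in either direction under 14 of the 16 alternatives set out for each result or with pseudogene copies added. The exceptions were 1 member lower under quantile normalization (Ndufs8) and 1 member lower with PBS replicate 3 added (Ndufaf5). The median of the Ndufaf genes was negative under all 16, from -0.38 to -0.26, and all 8 were negative except without STZ replicate 2, when 7 were. The subunit median ranged from -0.17 under quantile normalization to 0.01 with TPM values and without STZ replicate 1. The count of all genes past the threshold was 672, but 81 with no filter on low levels, 1169 with PBS replicate 3 added, and between 24 and 398 when 1 library was left out: 24 without PBS replicate 1, 29 without PBS replicate 2, 348, 392 and 398 without STZ replicates 1, 2 and 3. Fewer libraries remain in those fits, and a PBS group of 1 is assumed to vary like the STZ group. The share of higher calls was 62.6%, and 48.5% after centring, 50.2% after quantile normalization, 53.7% after rescaling to nuclear coding genes and 73.1% with TPM. With the replicate number as a block, 64 genes and 0 members passed. STZ replicate 3 has no partner among the fitted PBS libraries and drops out of that contrast, and the medians became -0.15 and -0.38. Same-numbered libraries correlated at 0.18, -0.05 and 0.15 in their deviations from the group means over 4811 genes. Libraries numbered 1 and 3 correlated best with their own number, and the atrial Myl7 ran alike in same-numbered libraries, but those numbered 2 did not, so the numbers were not taken to pair the samples. With PBS limited to 2 complete files and read numbers not given, small differences in a gene could not be told from the spread between libraries.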
